A study of Mus musculus with 14 samples.

Results

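Brown adipose tissue of mice lacking Lrpprc in Ucp1-expressing cells was compared with that of control mice at the room temperature of 22 °C, across all genes of the nuclear genome. The comparison was defined by the genotype and housing temperature in the labels and used 8 of the 14 libraries of the series, 4 from knockouts and 4 from controls, each from a separate animal with its own identifier. All were C57BL/6 mice, 8 weeks old, and every animal carried floxed Lrpprc alleles (LrpprcFF). The knockouts also carried Ucp1-Cre, a transgene that places Cre recombinase under the control of the Ucp1 promoter. Controls had no Cre, so the loss of Lrpprc and the presence of the transgene cannot be told apart. The other 6 libraries, 3 knockouts and 3 controls housed at 30 °C, entered the linear model and 1 side-by-side comparison. RNA was sequenced from homogenized tissue. The values are FPKM, that is fragments set against gene length and depth, rescaled between libraries as given below ("scaled FPKM"), and values of single animals are listed in the order of animals 1 to 4. Of the 35275 genes listed 13079 were expressed highly enough to test, and 13066 of these were nuclear.

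Brown fat burns fuel in its mitochondria and releases the energy as heat through UCP1, an uncoupling protein of the inner membrane. LRPPRC is a nuclear-encoded protein that binds and stabilizes the messenger RNAs made from mitochondrial DNA, which encode core subunits of the respiratory chain. When mitochondrial translation or respiration fails, many mammalian tissues switch on the integrated stress response, in which phosphorylation of eIF2α favours the translation of ATF4, a transcription factor for amino acid, one-carbon and tRNA synthetase genes.

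The labels were checked on the deleted gene itself. Lrpprc (ENSMUSG00000024120) stood at 59.4, 52, 36.3 and 25.1 scaled FPKM in controls and 11, 11.2, 8.96 and 11.2 in knockouts. All knockouts lay below all controls, and the control values spread over a wider range than the knockout values. Knockouts averaged 24.5% of controls, or 10.6 ± 1.09 against 43.2 ± 15.4 scaled FPKM (SD, n = 4 in each group). A two-sided exact permutation test gave p = 0.0286, the lowest possible with 4 animals a group. Lrpprc fell by 1.86 on the log2 scale (SE 0.22, limma adjusted p = 0.000467). Lrpprc RNA can persist in cells of the tissue that do not express Ucp1. In whole tissue, fewer cells of a type and less RNA per cell cannot be told apart.

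Libraries held 15.94 to 20.54 M fragments at 22 °C, recovered from the whole-read steps of low values. The 13 protein-coding mitochondrial genes took 21.8 to 28.5% of the FPKM sum in controls and 2.48 to 3.63% in knockouts, so that nuclear genes received a larger part of the FPKM sum in knockouts. Libraries were therefore brought to a common scale by their median ratio over 12046 nuclear genes, with divisors of 0.794 to 0.924 in controls and 1.03 to 1.11 in knockouts. The tissue label was checked against marker genes. Ucp1 itself stood at 3274, 2540, 1315 and 1510 scaled FPKM in controls and 3435, 1482, 1879 and 1612 in knockouts, and all 13 brown adipocyte markers were expressed, with a summed level of 24128 to 30359 scaled FPKM in controls and 17512 to 22739 in knockouts. These summed levels did not overlap on this scale, but only Adipoq passed the test among the 13. Fabp4 made up a large part of them, with a mean of 12458 scaled FPKM in controls and 8541 in knockouts. The median log2 fold change of the 13 was -0.14, and -0.28 without controls 3 and 4. It was 0.16 with the values as deposited, where the median nuclear gene stood at 0.24. With quantile normalization it was 0.31, and Fabp4 moved from -0.54 to 1.73. Both scales include the mitochondrial genes, whose share differed by genotype, so neither places the markers apart from that share. Before adjustment, the limma p was under 0.05 for 2 higher and 4 lower members. With Adipoq alone called and members changed in both directions, the sums do not show that the markers fell as a group. Epithelial markers were all under 1 FPKM in the 8 libraries of 22 °C. At 30 °C Krt18 averaged 12.4 scaled FPKM in controls and 1.47 in knockouts, and Epcam 2.41 and 0.275. Skeletal muscle markers were present in every library of 22 °C and uneven. Their sum was 775 and 591 in controls 1 and 2, 7852 and 4703 in controls 3 and 4, and 700 to 1785 in knockouts. Controls 3 and 4 are the animals whose identifiers begin with R instead of E, a letter the labels do not explain. Macrophage markers summed to 42.9 to 61.6 in controls and to 76.2, 167, 65.3 and 101 in knockouts 1 to 4, which did not overlap, while 0 of the 12 passed the limma test (3 at an unadjusted p under 0.05, all higher). Of these markers 11 reached 1 FPKM, and Spp1 did not.

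**Figure D1:**
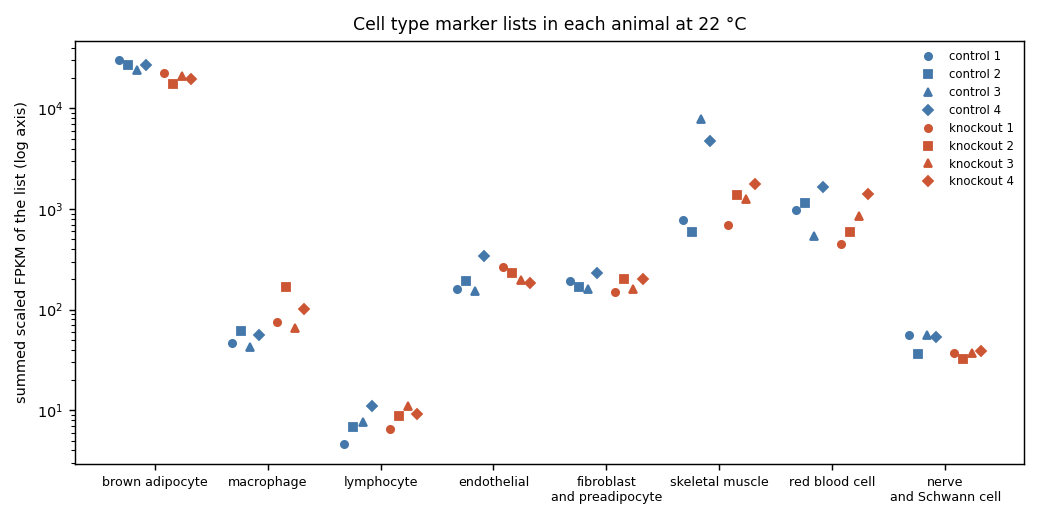
Summed scaled FPKM (log axis) of each cell type marker list in each animal at 22 °C, with controls in blue and knockouts in red and a symbol for each animal number. The 2 R controls stand apart for skeletal muscle markers (7852 and 4703, against 591 to 1785 in the other 6 animals), and the macrophage sums of all knockouts lie above those of all controls.

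Across nuclear genes, the largest called increases among genes with a mean of at least 5 FPKM in either group were those of Trib3 (3.98 on the log2 scale), a pseudokinase of the stress response, Mthfd2 (3.33), a folate enzyme, and Gadd45a (3.27), a stress sensor. The largest decreases were those of predicted genes with mitochondrial-like sequence, then Lrpprc itself and Pon1 (-1.85), paraoxonase. Of 13066 nuclear genes 226 passed an adjusted p under 0.05 (limma, Benjamini-Hochberg), or 1.73%, with 111 higher (0.85%) and 115 lower (0.88%) in knockouts. Another scaling changed this split: the values as deposited, which shift the median nuclear gene by 0.24, gave 3167 higher and 68 lower, and equal totals over nuclear genes, with a shift of 0.116, gave 386 higher and 62 lower. The changes upward were larger: 49 of the 111 were at least 1 on the log2 scale (median 0.90), against 21 of the 115 (median -0.67), and the median of all nuclear genes was 0.0021. Of the 115 lower genes 10 were predicted genes whose transcripts match mitochondrial transcripts at 90% identity or more over at least 50 nt, so their reads may belong to the mitochondrial genes, which leaves 105. The ranges of knockouts and controls did not overlap for 224 of the 226, and for 8.98% of all nuclear genes. The count depended on single animals: it was 51 without knockout 2, 78 without knockout 1, 82 without control 1, 101 without control 2 and 125 without control 4. A fit to the 8 libraries of 22 °C alone, which estimates the spread from those animals only, called 64. The cause of the lower count was not tested.

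**Figure D2:**
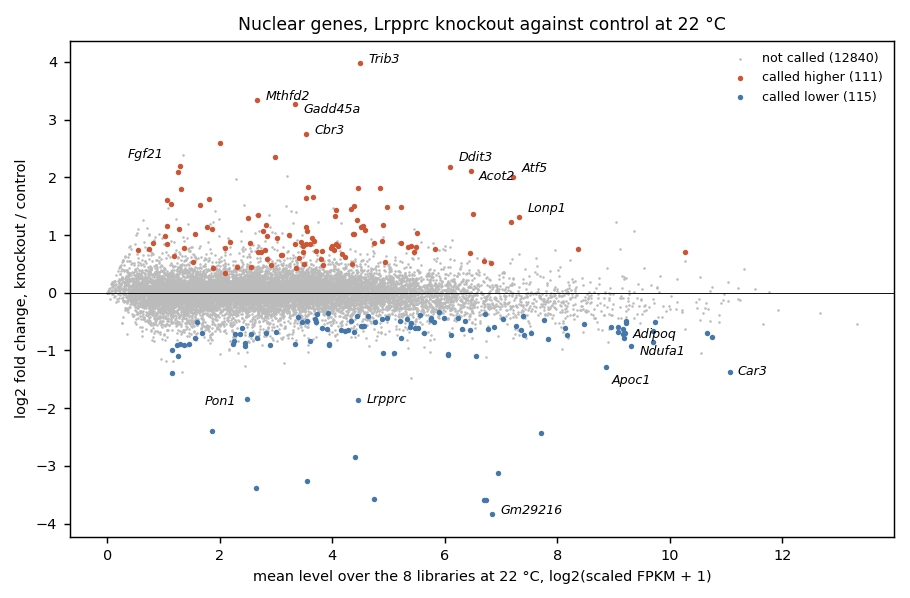
Log2 fold change (knockout over control, vertical axis) against the mean level over the 8 libraries at 22 °C (log2 of scaled FPKM + 1, horizontal axis) for 13066 nuclear genes, with the 111 genes called higher in red, the 115 called lower in blue and the others in grey. Trib3 is the highest called gene at 3.98, and the blue points below Lrpprc (-1.86) are the 10 predicted genes with mitochondrial-like sequence, such as Gm29216.

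Transcription factors of the integrated stress response and their feedback genes were the list with the most called members. Of 20 tested, 7 rose, 0 fell and 13 did not pass, with a median log2 fold change of 0.43. Trib3 (ENSMUSG00000032715), a pseudokinase induced by ATF4 and CHOP, stood at 3.97, 4.83, 4.22 and 5.97 scaled FPKM in controls and 154, 163, 63.2 and 38.9 in knockouts (log2 fold change 3.98 with SE 0.37, limma adjusted p = 3.73e-05). Ddit3, which encodes the transcription factor CHOP, stood at 27.7, 28.7, 30.8 and 38.7 scaled FPKM in controls and 244, 189, 105 and 89.3 in knockouts (log2 fold change 2.17 with SE 0.26, limma adjusted p = 0.00057). Atf4 itself stood at 50.6, 53.8, 58.5 and 59.3 scaled FPKM in controls and 245, 148, 107 and 113 in knockouts (log2 fold change 1.37 with SE 0.24, limma adjusted p = 0.0124). All knockouts lay above all controls for these 3 genes, and within the knockouts animals 1 and 2 were the highest. Atf5, a related factor linked to mitochondrial stress, was more even, at 63.7, 51.7, 121 and 73.5 scaled FPKM in controls and 367, 251, 302 and 280 in knockouts (log2 fold change 2.0 with SE 0.25, limma adjusted p = 0.000688). Ppp1r15a, the phosphatase subunit that reverses eIF2α phosphorylation, rose by 1.84, and smaller increases passed for Nupr1 (0.62) and Cebpg (0.53), a dimer partner of ATF4. Ppp1r15a passed in 10 of the 19 alternative analyses and Cebpg in 10, where Trib3, Ddit3 and Atf5 passed in all 19. Outside the naming rule, Chac1, a glutathione-degrading enzyme of the same response, was chosen after its values were seen: it stood at 1.8, 2.02, 5.63 and 3.25 scaled FPKM in controls and 6.58, 20.6, 6.67 and 6.91 in knockouts. Knockout 2 was high, and the gene did not pass (log2 fold change 1.34 with SE 0.52, limma adjusted p = 0.222).

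Enzymes of serine, glycine, proline and folate metabolism formed the next group, with 5 of 18 tested members higher, 0 lower and 13 not passing. Mthfd2 (ENSMUSG00000005667), the mitochondrial folate enzyme that is weakly expressed in most adult tissues, stood at 0.943, 0.427, 1.97 and 0.938 scaled FPKM in controls and 20.2, 15, 18.7 and 23.6 in knockouts (log2 fold change 3.33 with SE 0.22, limma adjusted p = 4.45e-06). Knockout values were similar to each other, and the lowest, 15, lay far above the highest control, 1.97. Phgdh, the entry enzyme of serine synthesis, stood at 6.3, 6.62, 20.3 and 7.98 scaled FPKM in controls and 25.3, 30.5, 27.3 and 23.4 in knockouts (log2 fold change 1.44 with SE 0.29, limma adjusted p = 0.0251). Control 3 was high for Phgdh and the ranges still did not overlap; it passed in 12 of the 19 alternatives. Aldh18a1 and Pycr1, which make proline from glutamate, rose by 1.63 and 0.87, from weak control levels of at most 1.29 and 0.381 scaled FPKM, and both passed in every alternative that tested them. Shmt2, the mitochondrial serine hydroxymethyltransferase, rose by 0.59. Psat1, the enzyme after Phgdh, was chosen after its values were seen and did not pass, at 2.75, 3.59, 7.55 and 2.76 scaled FPKM in controls and 6.83, 9.24, 6.11 and 7.85 in knockouts (log2 fold change 0.80 with SE 0.30, limma adjusted p = 0.206).

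Amino acid transport and the charging of tRNA changed in parts. Among 15 tested genes of amino acid synthesis and transport, 2 rose, 1 fell and 12 did not pass. Slc3a2, the shared heavy chain of several amino acid exchangers, stood at 15.9, 21.3, 25.5 and 23.2 scaled FPKM in controls and 120, 55.3, 42.6 and 49.9 in knockouts (log2 fold change 1.49 with SE 0.27, limma adjusted p = 0.0151), with knockout 1 far above the other knockouts. Slc7a1, a transporter of arginine and lysine, rose by 1.10. The member that fell was Glul, glutamine synthetase, at 1302, 1247, 1112 and 866 scaled FPKM in controls and 499, 556, 675 and 785 in knockouts (log2 fold change -0.85 with SE 0.17, limma adjusted p = 0.0278). Asns, asparagine synthetase and a classical ATF4 target, was chosen after its values were seen: it stood at 46.2, 43.9, 28.4 and 24.4 scaled FPKM in controls and 57.6, 46.8, 50.2 and 54.3 in knockouts. Controls 1 and 2 were close to the knockouts, and it did not pass (log2 fold change 0.58 with SE 0.19, limma adjusted p = 0.155). Of 20 cytosolic tRNA synthetases 5 rose and 0 fell (median 0.41): Wars by 1.18, Eprs by 1.04, Aars by 0.86, Sars by 0.79 and Cars by 0.71. Without the 2 R controls only Eprs and Cars passed, and in the fit to the 8 libraries of 22 °C only Eprs. Eprs, for glutamate and proline, stood at 31, 32.6, 33.5 and 25.7 scaled FPKM in controls and 89, 68.4, 46 and 58.9 in knockouts, without overlap. Of 17 mitochondrial tRNA synthetases 0 passed in limma (2 with p under 0.05 before adjustment, both higher); their median was 0.06, and -0.05 without the 2 R controls. The 4 lists of stress response factors, serine and folate enzymes, amino acid genes and cytosolic tRNA synthetases held 73 tested genes. Of these 19 rose, or 26%, beside 0.85% of all nuclear genes. Without the 2 R controls 6, 5, 1 and 2 members were called higher, in that order. The lists were chosen with earlier results of these data known, so these shares are a description only.

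The promoters of the higher genes were searched for the C/EBP-ATF response element, the composite site recognised by ATF4 with a C/EBP partner, since ATF4 target genes were listed. The motif searched was TGATGNAA on both strands of RefSeq promoters, 250 bases before to 50 after each gene's start (GRCm38.p6, the first entry of each gene). Among the 111 higher genes 86 had a promoter entry, and 9 of these held the motif (10.5%). The motif was in 2 of 78 promoters of lower genes (2.56%), 218 of the 9733 tested nuclear genes with an entry (2.24%) and 1096 of all 27025 promoters (4.06%). Stretches around the match are shown for these 9 genes, written along the gene's strand with the match in capitals, because they place the motif in the genes that rose.
Trib3: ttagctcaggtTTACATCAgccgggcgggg
Fgf21: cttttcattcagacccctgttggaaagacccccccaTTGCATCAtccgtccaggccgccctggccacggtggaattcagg
Arhgef2: atgggatgggcTGATGAAAtcccaggaaat
Pck2: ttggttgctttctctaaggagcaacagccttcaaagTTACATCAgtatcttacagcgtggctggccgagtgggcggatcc
Pycr1: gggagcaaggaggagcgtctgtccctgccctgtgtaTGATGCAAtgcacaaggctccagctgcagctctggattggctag
Aars: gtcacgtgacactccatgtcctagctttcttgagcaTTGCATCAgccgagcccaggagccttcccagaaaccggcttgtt
Tmem268: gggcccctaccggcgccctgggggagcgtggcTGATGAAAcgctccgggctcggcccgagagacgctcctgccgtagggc
Chchd10: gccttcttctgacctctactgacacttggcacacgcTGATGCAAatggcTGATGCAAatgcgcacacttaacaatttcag
Nupr1: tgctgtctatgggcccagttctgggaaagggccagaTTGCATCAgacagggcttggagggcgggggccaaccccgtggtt
The stretches lie at chr2:152344028-152344057 for Trib3, chr7:45615586-45615665 for Fgf21, chr3:88616158-88616187 for Arhgef2, chr14:55540127-55540206 for Pck2, chr11:120643808-120643887 for Pycr1, chr8:111033694-111033773 for Aars, chr4:63558513-63558592 for Tmem268, chr10:75933009-75933088 for Chchd10 and chr7:126625537-126625616 for Nupr1 (GRCm38.p6). The genes of Trib3, Fgf21, Pycr1 and Nupr1 lie on the minus strand. The match began 15 bases after the annotated start for Trib3, 27 after it for Arhgef2, 218 before it for Tmem268 and 85 to 139 before it for the others. The Chchd10 stretch held 2 matches, and Aars had another match outside the stretch. TTGCATCA and TTACATCA here are the same motif read from the other strand. Pck2, the mitochondrial enzyme that makes phosphoenolpyruvate, and Chchd10, a small protein of the mitochondrial intermembrane space, lie outside the naming rule and were chosen for the motif after their values were seen. Pck2 stood at 4.41, 6.52, 9.01 and 9.69 scaled FPKM in controls and 19.3, 19.4, 13.4 and 13.3 in knockouts (log2 fold change 1.07 with SE 0.25, limma adjusted p = 0.0468). Chchd10 stood at 946, 858, 1133 and 961 scaled FPKM in controls and 1989, 1475, 1619 and 1301 in knockouts (log2 fold change 0.70 with SE 0.15, limma adjusted p = 0.032). Neither overlapped between groups. Tmem268, also outside the rule, rose by 0.85. The antioxidant response element, searched as TGACNNNGC, was in 18.6% of the higher genes' promoters, 12.8% of the lower genes', 15% of those of tested genes and 12.5% of all. No match of this element overlapped one of the other motif. A match is a description of the letters only.

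Secreted stress factors, DNA damage genes and antioxidant genes rose in single members. Fgf21, a hormone released by stressed liver, muscle and fat, stood at 0.331, 0.0683, 0.0597 and 0.197 scaled FPKM in controls and 15.7, 4.59, 1.3 and 1.79 in knockouts (log2 fold change 2.09 with SE 0.47, limma adjusted p = 0.0392). All knockouts lay above all controls, with knockout 1 the highest, but Fgf21 passed in only 9 of 18 alternatives and not without the R controls. Angptl6, an angiopoietin-like secreted protein, rose by 1.11. Gdf15, the stress hormone that acts on the brainstem, was chosen after its values were seen: it stood at 0.0398, 0, 0.0719 and 0.356 scaled FPKM in controls and 16.3, 7.34, 1.21 and 2.5 in knockouts. The groups did not overlap, and Gdf15 did not pass (log2 fold change 2.38 with SE 0.76, limma adjusted p = 0.138). Gadd45a (ENSMUSG00000036390), a stress sensor induced by p53 and ATF4, stood at 1.76, 1.3, 1.86 and 5.1 scaled FPKM in controls and 59.2, 47.7, 15.1 and 19.2 in knockouts (log2 fold change 3.27 with SE 0.41, limma adjusted p = 0.000751). It alone of 15 tested genes of the p53 and Gadd45 list passed. Of 23 targets of Nrf2, the antioxidant transcription factor, 3 rose and 0 fell. Cbr3, a carbonyl reductase, stood at 2.26, 2.55, 6.45 and 3.71 scaled FPKM in controls and 39.7, 41.9, 20.6 and 20.8 in knockouts (log2 fold change 2.75 with SE 0.31, limma adjusted p = 0.000365). Hmox1, heme oxygenase, rose by 1.65 and Srxn1, sulfiredoxin, by 0.90, and each passed in 10 of 19 alternatives.

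Protein quality control in the endoplasmic reticulum and in mitochondria changed little outside a few genes. Of 20 endoplasmic reticulum stress genes 3 rose: the sensors Ern1 (1.35) and Atf6 (0.96), and Edem1 (0.68), which helps clear misfolded glycoproteins. Ern1 stood at 2.91, 3.33, 3 and 2.9 scaled FPKM in controls and 13.2, 14.2, 5.53 and 6.87 in knockouts, without overlap. Atf6 passed in 7 of 19 alternatives and Edem1 in 6. Of 21 mitochondrial chaperones and proteases, Lonp1, the matrix protease, alone passed, at 121, 112, 102 and 73.6 scaled FPKM in controls and 368, 314, 163 and 206 in knockouts (log2 fold change 1.30 with SE 0.27, limma adjusted p = 0.0283). The chaperones Hspd1 and Hspa9 did not pass (0.18 and 0.75 on the log2 scale, limma adjusted p = 0.72 and 0.104), and the list's median was 0.02, or -0.15 without the R controls. Sqstm1, the autophagy receptor p62, rose by 1.23, alone among 16 genes of mitochondrial dynamics and mitophagy. Lonp1 passed in 11 of 19 alternatives and Sqstm1 in 12. Neither passed without the R controls or in the fit to the 8 libraries of 22 °C.

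**Figure D3:**
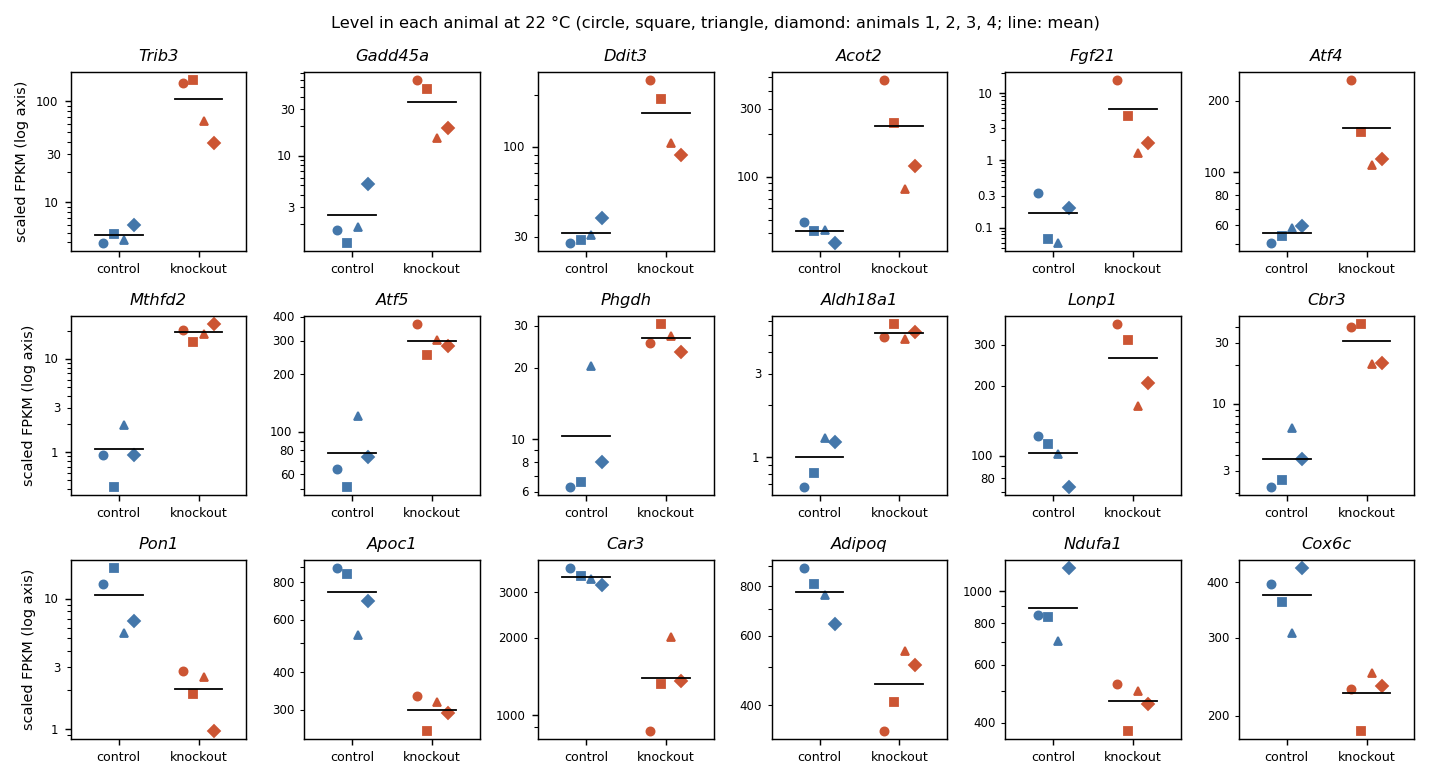
Scaled FPKM (log axes) of 18 genes in each animal at 22 °C, with controls in blue, knockouts in red, a symbol for each animal number and a line at the group mean. Knockouts 1 and 2 are the highest for Trib3, Gadd45a, Ddit3, Acot2, Fgf21 and Atf4, whereas Mthfd2 (15 to 23.6), Atf5 (251 to 367) and Aldh18a1 (4.74 to 5.78) are close together in all 4 knockouts.

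The knockouts differed among themselves in the stress genes. Knockouts 1 and 2 held the 2 highest knockout values in 80 of the 111 higher genes (72.1%) and in 12 of the 15 largest, and knockouts 3 and 4 in 2 of the 111; over all nuclear genes these shares were 17.8% and 20.7%. Among the 115 lower genes, knockouts 3 and 4 held the 2 highest knockout values in 47 (40.9%) and knockouts 1 and 2 in 6 (5.22%). Knockouts 1 and 2 were thus farther from the controls in both directions for many called genes. Lrpprc and the mitochondrial share of FPKM did not follow this order (Lrpprc at 11, 11.2, 8.96 and 11.2 scaled FPKM and a share of 2.86, 3.63, 2.48 and 2.98% in knockouts 1 to 4). The macrophage sum was highest in knockouts 2 and 4, and its part in the called genes was not tested.

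The other genes among the 15 largest increases belonged to none of the gene lists. Acot2, a mitochondrial thioesterase that releases fatty acids from coenzyme A, stood at 48.2, 41.5, 42.6 and 34.4 scaled FPKM in controls and 475, 237, 81.5 and 119 in knockouts (log2 fold change 2.11 with SE 0.39, limma adjusted p = 0.0182). Acot1 is a near-identical neighbour, and how such reads were split is not given in the sources used here. Scd3, a fatty acid desaturase with close paralogs, stood at 0.195, 0.11, 0.224 and 0.0528 scaled FPKM in controls and 10.4, 6.62, 1.13 and 3.14 in knockouts (log2 fold change 2.20 with SE 0.38, limma adjusted p = 0.011). Dhrs9, a dehydrogenase of the short-chain family that acts on retinol, stood at 5.73, 3.8, 1.37 and 1 scaled FPKM in controls and 26.1, 13.2, 14.1 and 16.7 in knockouts (log2 fold change 2.35 with SE 0.34, limma adjusted p = 0.00325), with controls 1 and 2 above controls 3 and 4. Arhgef2 rose by 1.82 and held the C/EBP-ATF motif. Dusp4, a nuclear phosphatase of MAP kinases, rose by 1.81, and Stbd1, a glycogen-binding protein, by 1.66. Extl1, a glycosyltransferase, stood at 0.149, 0.216, 1.74 and 0.904 scaled FPKM in controls and 19, 15.5, 2.95 and 6.32 in knockouts (log2 fold change 2.59 with SE 0.48, limma adjusted p = 0.0171), with a wide spread in both groups. Elmod2, the neighbour of Ucp1 in the annotation, was chosen after its values were seen and stood at 8.38, 6.32, 8.13 and 4.8 scaled FPKM in controls and 13.7, 13.5, 18.3 and 19.7 in knockouts (log2 fold change 1.14 with SE 0.19, limma adjusted p = 0.00921). Unlike most higher genes, it was highest in knockouts 3 and 4.

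Apart from the predicted genes and Lrpprc, the largest decreases were those of Pon1, Car3 and Apoc1 among genes with a symbol and a mean of at least 5 FPKM in either group. Pon1 stood at 13.1, 17.2, 5.46 and 6.73 scaled FPKM in controls and 2.78, 1.88, 2.54 and 0.979 in knockouts (log2 fold change -1.85 with SE 0.31, limma adjusted p = 0.00921). Apoc1, an apolipoprotein, stood at 893, 853, 535 and 693 scaled FPKM in controls and 333, 255, 317 and 292 in knockouts (log2 fold change -1.29 with SE 0.21, limma adjusted p = 0.00703). The groups did not overlap for either gene, and both passed in all 19 alternatives. Car3, a carbonic anhydrase abundant in fat and muscle, stood at 3720, 3474, 3364 and 3200 scaled FPKM in controls and 872, 1317, 2015 and 1352 in knockouts (log2 fold change -1.37 with SE 0.22, limma adjusted p = 0.00686), with the controls close together although their muscle markers differed. Adipoq, the hormone adiponectin, stood at 890, 810, 759 and 642 scaled FPKM in controls and 345, 408, 548 and 506 in knockouts (log2 fold change -0.79 with SE 0.15, limma adjusted p = 0.0182). Cidec, which enlarges lipid droplets, fell by 0.71, alone of 19 lipolysis and lipid droplet genes. Pxmp2, a channel of the peroxisomal membrane, fell by 0.90 and passed in all 19 alternatives. Decreases also passed for Gpx8 (-1.10), a peroxidase of the endoplasmic reticulum, Fcor (-1.08), a corepressor of FOXO1 in adipocytes, and Lrg1 (-1.06), a secreted glycoprotein. Others were Net1 (-1.04), Cmbl (-1.05), a hydrolase, Egln3 (-0.93), an oxygen-sensing prolyl hydroxylase, Syt12 (-0.90), a synaptotagmin, and Itpka (-0.89), an inositol phosphate kinase. Net1 passed in 7 of 19 alternatives and Egln3 in 4 of 18.

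Nuclear-encoded subunits of the respiratory chain and ATP synthase lay below the control level almost without exception, and 14 of 83 tested fell (16.9%, beside 0.88% of all nuclear genes), 0 rose and 69 did not pass. Their median log2 fold change was -0.33, beside 0.0021 for all nuclear genes, and 80 of the 83 were below 0. The lists of these subunits were also chosen with earlier results of these data known. By complex, 4 of 36 fell in complex I (median -0.33), 0 of 4 in complex II (-0.21), 3 of 10 in complex III with cytochrome c (-0.29), 4 of 17 in complex IV (-0.37) and 3 of 16 in ATP synthase (-0.31). With the values as deposited these medians were -0.03, 0.10, 0.01, -0.07 and -0.01, a change of direction for complexes II and III. The median of all nuclear genes stood at 0.24 on that scale. Ndufa1, a small membrane subunit of complex I, stood at 849, 833, 705 and 1176 scaled FPKM in controls and 525, 379, 498 and 457 in knockouts (log2 fold change -0.92 with SE 0.15, limma adjusted p = 0.00686). Cox6c is a small subunit of cytochrome oxidase, a complex to which Ndufa4 also belongs. Cox6c stood at 396, 361, 307 and 431 scaled FPKM in controls and 229, 185, 250 and 234 in knockouts (log2 fold change -0.73 with SE 0.12, limma adjusted p = 0.00796). Ndufa4 stood at 2309, 2086, 1793 and 2087 scaled FPKM in controls and 1217, 1120, 1306 and 1458 in knockouts (log2 fold change -0.70 with SE 0.12, limma adjusted p = 0.00927). The ranges did not overlap for these 3 genes, whose calls held in each of the 8 fits that left out an animal. None of the 3 passed in the fit to the 8 libraries of 22 °C (limma adjusted p = 0.0587, 0.0626 and 0.0754). Ndufa4 was at -0.28 with quantile normalization (limma adjusted p = 0.341), which ranked nuclear genes together with the mitochondrial ones. Cox6c2, a copy of Cox6c from which reads may not be separable, fell by 0.89. The other called subunits fell by 0.47 to 0.70 and were Ndufb3, Ndufb5, Ndufc1, Uqcrb, Uqcrh, Uqcr11, Cox7b, Cox7c, Atp5e, Atp5j2 and Atp5k. Each of these 11 passed in 1 to 6 of the 8 fits that left out an animal. None of the 11 passed in the fit to the 8 libraries of 22 °C (limma adjusted p = 0.102 to 0.151). The same held with the values as deposited (limma adjusted p = 0.0529 to 0.274) and with quantile normalization (limma adjusted p = 0.0599 to 0.416). Both of these scales include the mitochondrial genes, whose share differed by genotype, so neither tests the decreases apart from that share. Sdha, the flavoprotein of complex II, did not pass, at 1307, 1153, 836 and 509 scaled FPKM in controls and 871, 858, 912 and 960 in knockouts (log2 fold change 0.01 with SE 0.24, limma adjusted p = 0.993).

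Many of the called subunits are small proteins, and the fold change moved with transcript length over the whole table. The longest annotated transcript had a median of 1588 nt in 92 lower protein-coding genes, 3527 nt in 109 higher ones and 3346 nt in all 11881 tested. Across those 11881 genes Spearman's rank correlation between length and log2 fold change was 0.18, as a description over genes of the same libraries. Among other protein-coding genes the median ran from -0.14 up to 700 nt to 0.05 above 5000 nt. The respiratory subunits lay lower in every length class, at -0.40 against -0.14 up to 700 nt, -0.32 against -0.14 in the next class up to 1000 nt, and -0.35 against -0.08 in that up to 1500 nt. The part of length in the called decreases was not tested.

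**Figure D4:**
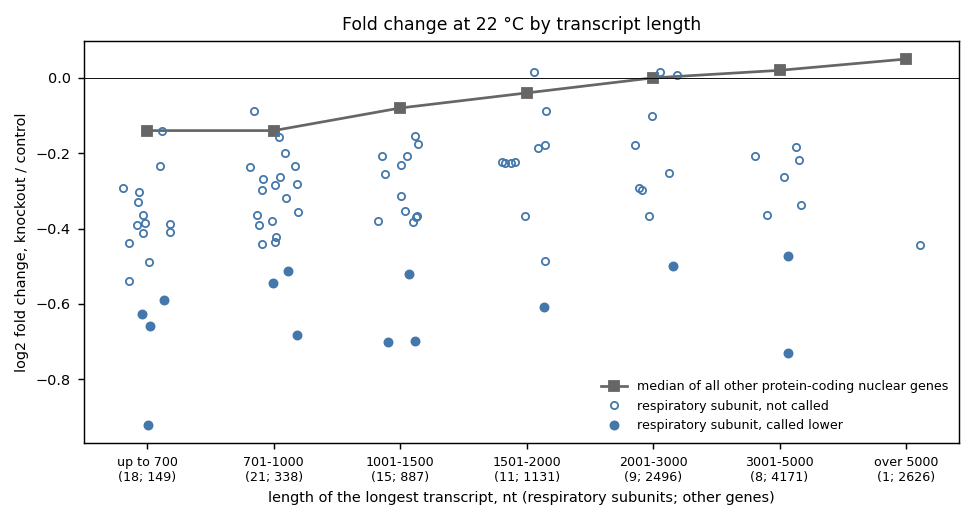
Log2 fold change at 22 °C (vertical axis) by class of longest transcript (horizontal axis, nt, with the numbers of respiratory subunits and other genes in each class); circles are single subunits, filled where called lower, and squares the median of all other protein-coding nuclear genes. The subunits lie mostly below the squares in each class, with medians of -0.40 and -0.14 in the shortest class.

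The machinery that makes and assembles mitochondrial proteins changed in few members. Of 47 large-subunit mitochondrial ribosomal proteins 4 fell (Mrpl18 by 0.61, Mrpl11 by 0.48, Mrpl22 and Mrpl51 by 0.44 each), and of 30 small-subunit proteins Mrps21 fell by 0.58. The medians were -0.18 in both lists, beside 0.0021 for all nuclear genes, with 42 of 47 and 27 of 30 members below 0. With the values as deposited the list medians were 0.10 and 0.11, where the median of all nuclear genes was 0.24. Mrpl18 stood at 57.6, 52.9, 48.2 and 57.1 scaled FPKM in controls and 30, 31, 37 and 42.9 in knockouts. Tomm7, a small subunit of the outer membrane import channel, alone passed of 29 import genes and fell by 0.49. Pet100, an assembly factor of cytochrome oxidase, alone passed of 39 assembly factors (-0.67), and 0 of 13 coenzyme Q genes passed in limma (3 at an unadjusted p under 0.05). Of 30 genes for mitochondrial transcription and RNA handling, other than Lrpprc, Hsd17b10, a dehydrogenase that is also a subunit of mitochondrial RNase P, alone fell, at 227, 194, 186 and 214 scaled FPKM in controls and 142, 113, 140 and 131 in knockouts (log2 fold change -0.64 with SE 0.10, limma adjusted p = 0.00686). It passed in all 19 alternatives.

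Thermogenic and fuel metabolism genes were mostly not called. Of 20 thermogenic genes Ppargc1a, the coactivator of mitochondrial biogenesis, alone passed, at 9.31, 13.7, 22.6 and 14.6 scaled FPKM in controls and 38, 20.3, 48.2 and 31.1 in knockouts (log2 fold change 1.14 with SE 0.26, limma adjusted p = 0.0393). The list's median was 0.08, or -0.25 without the R controls. Ucp1 did not pass (log2 fold change -0.02 with SE 0.32, limma adjusted p = 0.982). Its log2 fold change was 0.28 with the values as deposited and -0.54 without the R controls, since controls 3 and 4 were the lowest. In limma 0 members passed among 23 fatty acid oxidation genes (median -0.10), 19 lipogenesis genes (-0.07), 25 pyruvate and citric acid cycle genes (-0.06), 20 branched-chain amino acid genes (-0.13), 6 creatine cycle genes (0.06) and 19 adrenergic and cAMP genes (-0.12). At an unadjusted p under 0.05 there were 3 lower and 1 higher, 4 lower, 2 lower and 1 higher, 4 lower, 2 higher and 0 in these lists, in that order. With the values as deposited the negative ones of these medians became positive, at 0.17 to 0.25, where the median of all nuclear genes was 0.24. With equal totals they were 0.01 to 0.09, where that median was 0.116. A sign on these scales thus does not place a list above or below the typical gene. The first 3 of them were also positive with quantile normalization, at 0.12 to 0.14, which ranked nuclear genes together with the mitochondrial ones. Without the 2 R controls 4 fatty acid oxidation, 2 citric acid cycle and 7 branched-chain genes passed, all lower, with 1 adrenergic gene lower and 1 creatine cycle gene higher (creatine list median 0.53); whether this follows from the muscle RNA of those controls was not tested. Fasn, fatty acid synthase, stood at 3120, 2998, 3247 and 1231 scaled FPKM in controls and 1294, 1820, 3399 and 3418 in knockouts, with control 4 far below the other controls and a wide spread in knockouts. Pfkp, a phosphofructokinase, rose by 0.87, alone of 20 glucose uptake and glycolysis genes.

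**Figure D5:**
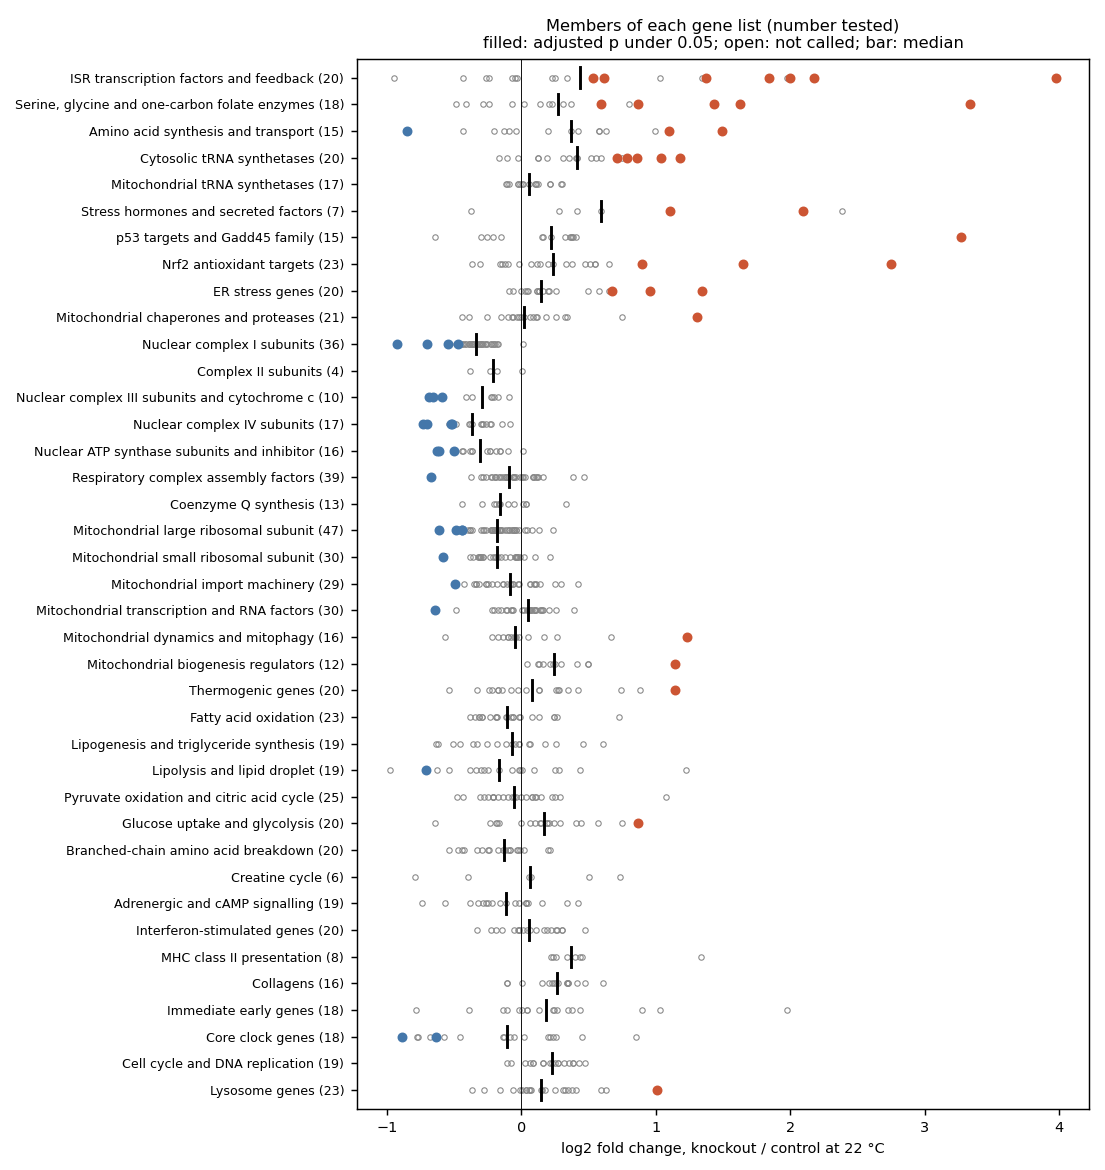
Log2 fold change at 22 °C (horizontal axis) of the tested members of 39 gene lists, with filled points for genes past an adjusted p of 0.05 (red higher, blue lower), open points for the others and a bar at each list's median. Most called increases lie in the upper 10 lists, from the integrated stress response to mitochondrial chaperones and proteases, and called decreases in the lists of respiratory subunits and mitochondrial ribosomal proteins.

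Immune, matrix and clock genes gave few calls. In limma 0 genes passed among 20 interferon-stimulated genes (median 0.05), 8 MHC class II genes (0.37), 16 collagens (0.27), 18 immediate early genes (0.18) and 19 cell cycle genes (0.23), where 1, 1, 3, 3 and 5 were higher and 0 were lower with p under 0.05 before adjustment. All of these medians except that of the interferon list were also positive, at 0.16 or more, with the values as deposited, quantile normalization, equal totals and without the R controls. For the interferon list these ranged from 0.01 to 0.25. The median of all nuclear genes was itself 0.24 with the values as deposited and 0.116 with equal totals. Lyz2, a macrophage enzyme, stood at 28.2, 37.7, 22.7 and 28.2 scaled FPKM in controls and 48.8, 115, 40.2 and 68.7 in knockouts without overlap and did not pass (log2 fold change 1.10 with SE 0.46, limma adjusted p = 0.257). Of 18 clock genes 2 fell, the repressor Ciart (-0.89) and the output factor Tef (-0.64), which passed in 9 and 6 of 19 alternatives. Of 23 lysosome genes Npc1, which exports cholesterol from lysosomes, alone rose (1.01).

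Many of the same changes were called in the libraries of 30 °C, which have their own controls. Of the 111 genes higher at 22 °C, 60 were also called higher there, where 7.95% of all nuclear genes were called higher, and of the 115 lower genes 83 were called lower, where 5.35% were. No gene was called in opposite directions. Of the 226 genes 0 passed a test of the difference between temperatures (limma interaction, smallest adjusted p = 0.147, 48 at an unadjusted p under 0.05); of all tested genes 9 passed. Log2 fold changes at 22 and 30 °C were 3.98 and 3.43 for Trib3, 3.33 and 2.68 for Mthfd2, and 2.17 and 1.19 for Ddit3. For Ppargc1a they were 1.14 and 0.18 (limma adjusted p of the difference = 0.328) and for Dusp4 1.81 and 0.47 (0.295). A difference that did not pass does not show that the effects were equal.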

How the data were processed

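RNA of 14 mouse brown adipose samples was sequenced, and samples were grouped by the genotype and housing temperature in the labels. The authors deposited FPKM per gene, normalized to gene length and fragments, with 1 column per animal. The genome build was mm9, per the submitters' processing notes; the aligner, counting tool, strand use and annotation are not given in the sources used here, and replicates were deposited singly. Of 35275 gene IDs 34490 matched a GENCODE M21 symbol. That annotation gave transcript lengths only, promoters came from RefSeq GRCm38.p6, and no coordinates were converted between builds.

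Genes with at least 1 FPKM in at least 3 libraries were kept. Each library was divided by its median ratio to the geometric mean over 12046 nuclear genes. limma 3.58.1 (R 4.3.3; lmFit, eBayes with trend) was fitted to log2(scaled FPKM + 1) in all 14 libraries with a mean for each of 4 groups, with Benjamini-Hochberg adjustment across all 13079 genes; adjusted p under 0.05 was called. The pseudocount of 1 understates fold changes of weakly expressed genes. Lrpprc was also compared by an exact permutation test. Depth, 15.94 to 21.35 M fragments over all libraries, was recovered from low values of genes with 1 transcript, of which 88.4 to 90.2% were whole within 0.02 of a read. A limma p-value sets a difference between group means against the spread between animals, estimated over all 4 groups. Mitochondrial-like sequence was found with blastn 2.17.0, and Python 3.11.15 with scipy 1.17.1, pandas 2.3.3, numpy 2.4.6 and matplotlib 3.10.9 made the tables and plots. The fit was tested on simulated data.

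Named genes were the 15 largest changes in each direction among called genes with a symbol other than a predicted name, no overlap between groups and 5 FPKM or more on average in either group; Lrpprc and Ucp1; called members of 48 gene lists; and, for lists with fewer than 2 called members, the 2 of highest level. Genes outside this rule are marked as chosen after their values were seen. Gene lists and alternatives were chosen with earlier results of these data known. The alternatives were a pseudocount of 0.1, no filter or a mean of at least 5 FPKM, values as deposited, quantile normalization, equal totals over nuclear genes, a fit to the 8 libraries of 22 °C, eBayes without trend or robust, sample weights, leaving out the 2 controls with R identifiers, and leaving out each animal in turn. Quantile normalization started from the values as deposited and included the mitochondrial genes.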

Additional observations from a re-analysis of the deposited data

Results flagged for a closer look

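In each group of 4 animals, a value was noted where the gap to its nearest neighbour was a large part of the group's range (past the 95% critical value of Dixon's test). Chance alone notes about 1 group in 20, and 16 values were noted in 334 groups. Values are in scaled FPKM. Among stress genes, Gadd45a in control 4 (5.1, others 1.3 to 1.86), Phgdh in control 3 (20.3, others 6.3 to 7.98), Slc3a2 in knockout 1 (120, others 42.6 to 55.3) and Chac1 in knockout 2 (20.6, others 6.58 to 6.91) stood above the rest of their groups. Lrpprc stood lower in knockout 3 (8.96) than in the other knockouts (11 to 11.2). Control 4 was high for Uqcr11 (1320, others 945 to 1006), Etfb (1976, others 1606 to 1657) and Lars2 (481, others 86.1 to 143), nuclear genes of mitochondrial proteins. It was low for Fasn (1231, others 2998 to 3247). Mrpl22 was high in control 1 (38.6, others 34.1 to 34.7) and Dbi low in control 2 (2133, others 2291 to 2306). The immune genes Gbp2 in control 3 (14.3, others 10.8 to 11.3) and Cd74 in knockout 2 (114, others 67.4 to 72) were high, as was Malat1 in knockout 3 (190, others 166 to 168). Epcam was listed at 0.03 in control 4 and 0.0489 in knockout 1, and at 0 in the other animals of each group.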

How the results depend on the processing

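Among 19 alternatives, 0 of the 81 called genes named by the rule changed direction, 15 passed in each alternative that tested them and 20 in each of the 8 fits that left out an animal; of 66 named genes that were not called, 17 passed in some alternative. Against 226 calls (111 higher, 115 lower), no filter on low values gave 112 (48 and 64), the values as deposited 3235 (3167 and 68), equal totals over nuclear genes 448 (386 and 62), the fit to the 8 libraries of 22 °C 64 (35 and 29) and sample weights 870 (359 and 511). Without the 2 R controls 309 genes were called, 96 higher and 213 lower, and 124 of them were among the 226; the cause was not tested. Leaving out each animal in turn gave 51 to 253 calls, 24 to 138 higher and 27 to 117 lower, and a Lrpprc level of 21.5 to 28.0% of control with an exact permutation p = 0.0571, the smallest that 4 against 3 animals allow. The other alternatives gave 170 to 259 calls. No paired analysis was possible because the animals carry individual identifiers and share no replicate numbers between groups. Depth is similar in all libraries, and genes under 1 FPKM rest on few fragments.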

Other observations

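Further called genes lie outside the gene lists and the naming rule and were chosen after their values were seen. Dbi, the acyl-CoA binding protein, stood at 2291, 2133, 2306 and 2304 scaled FPKM in controls and 1327, 1062, 1464 and 1502 in knockouts (log2 fold change -0.77 with SE 0.14, limma adjusted p = 0.0185). Acox2, a peroxisomal oxidase of branched acyl-CoA and bile acid intermediates, stood at 0.359, 0.35, 0.897 and 0.126 scaled FPKM in controls and 2.68, 2.53, 1.22 and 2.35 in knockouts (log2 fold change 1.16 with SE 0.25, limma adjusted p = 0.036), and Gpat3, which starts triglyceride synthesis, rose by 0.99. C1qtnf12, the adipokine adipolin, stood at 97.9, 97.3, 72.9 and 87.1 scaled FPKM in controls and 57.3, 50.2, 57.6 and 45.9 in knockouts (log2 fold change -0.74 with SE 0.11, limma adjusted p = 0.00489) and passed in all 19 alternatives, while Tsku, a secreted leucine-rich protein, rose by 1.49, Cx3cl1, the chemokine fractalkine, by 1.51 and Fgf1, a growth factor of adipose tissue, by 0.71. Cx3cl1 stood at 0.65, 1.02, 0.939 and 0.849 scaled FPKM in controls and 7.93, 6.51, 2.13 and 2.77 in knockouts, with knockouts 1 and 2 the highest. Nfkb2, a subunit of NF-κB, rose by 0.84.

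Usmg5 and Atp5mpl, small proteins attached to ATP synthase that were not in its list, fell by 0.60 and 0.69, and Cisd1, an iron-sulfur protein of the outer membrane, fell by 0.41. Atp5mpl stood at 829, 734, 593 and 853 scaled FPKM in controls and 515, 393, 465 and 481 in knockouts, without overlap. Malat1, a long nuclear RNA that encodes no protein, fell as well, at 339, 262, 246 and 381 scaled FPKM in controls and 168, 167, 190 and 166 in knockouts (log2 fold change -0.80 with SE 0.13, limma adjusted p = 0.00827).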
